A study of Rattus norvegicus with 20 samples.

Results

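Interferon-stimulated genes are the antiviral and signalling genes that cells switch on when interferon binds its receptors. The 41 genes described here were listed by name for their known place in that response, not by their values in these rats, although the list was drawn up with earlier results of these data known. Of the 41, 38 had a probe set annotated to that gene alone, 1 each, out of 14497 genes with such a probe set on the array. Samhd1, Parp14 and Xaf1 were not matched and have no value here, and Ddx58 is an older symbol of the gene listed in RefSeq as Rig1. The values come from RNA of blood cells of 20 male rats of 2 inbred strains, LEW/Crl (LEW) and WKY/NCrl (WKY), hybridised 1 rat to 1 Rat Gene 1.0 ST array. All rats were 15 weeks old and had spent 7 weeks on a cafeteria diet (CAF), an energy-dense choice of human foods, or on standard chow (STD). The 4 groups of 5 rats were WKY on CAF, LEW on CAF, WKY on STD and LEW on STD. No allele, transgene or drug was added in any group, and each strain is a single inbred genotype, so a strain difference is one between these particular genotypes. The sample labels call the material peripheral blood mononuclear cells, whereas the protocols describe monocytes isolated from aortic blood on a density gradient. The methods add that monocytes were then selected by letting them adhere to plastic in serum-free medium and washing off the other cells.

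As background, type I interferons bind the receptor Ifnar1–Ifnar2, whose kinases Jak1 and Tyk2 phosphorylate Stat2. Stat2 acts with Irf9 in the complex ISGF3, which binds the interferon-stimulated response element (ISRE) in promoters, while interferon γ acts through the γ-activated site (GAS). The products sense viral nucleic acid, degrade or edit RNA, block virus entry and release, or raise and curb the response itself, and in monocytes many of the genes have a basal level without infection.

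Many, but not all, of the members with a promoter window carry the letters of the same sequence element. RefSeq promoter windows on the rat build GRCr8, 300 bases long from 250 bases before the gene start to 50 after it, were at hand for 30 of the 41 members. The ISRE letters GAAANNGAAA, read on both strands, lay in the window of 21 of these 30 members, against 3.92% of all 33469 rat windows. The GAS letters TTCNNNGAA, which read the same on both strands, lay in 9 of the 30, against 8.87% of all windows. A match is a description of letters and says nothing of binding. Below are the windows of the 4 members with an ISRE match among the 10 largest strain differences on CAF, on the strand of the gene, with the ISRE letters in capitals. They lie at chr1:241527076-241527375 on the plus strand (Ifit3), chr1:205799974-205800273 on the minus strand (Irf7), chr3:67683919-67684218 on the minus strand (Ifih1) and chr12:41330216-41330515 on the plus strand (Oas1a).
Ifit3: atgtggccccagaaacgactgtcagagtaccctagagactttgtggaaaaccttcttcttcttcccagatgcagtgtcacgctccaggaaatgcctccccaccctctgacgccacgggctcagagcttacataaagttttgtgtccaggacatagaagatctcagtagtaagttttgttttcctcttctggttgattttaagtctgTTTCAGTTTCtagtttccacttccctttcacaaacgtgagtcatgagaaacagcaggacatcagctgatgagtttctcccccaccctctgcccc
Irf7: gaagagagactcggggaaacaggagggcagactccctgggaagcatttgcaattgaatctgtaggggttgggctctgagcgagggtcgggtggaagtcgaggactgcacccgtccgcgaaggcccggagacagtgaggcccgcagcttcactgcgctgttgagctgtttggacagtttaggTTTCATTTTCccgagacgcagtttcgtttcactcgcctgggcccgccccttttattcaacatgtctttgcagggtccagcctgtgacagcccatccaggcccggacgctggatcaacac
Ifih1: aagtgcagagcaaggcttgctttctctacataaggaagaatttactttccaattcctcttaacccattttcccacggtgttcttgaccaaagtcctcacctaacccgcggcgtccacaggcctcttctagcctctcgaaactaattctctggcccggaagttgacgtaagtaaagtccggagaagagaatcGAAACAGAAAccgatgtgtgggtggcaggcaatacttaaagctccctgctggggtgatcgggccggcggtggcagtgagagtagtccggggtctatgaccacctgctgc
Oas1a: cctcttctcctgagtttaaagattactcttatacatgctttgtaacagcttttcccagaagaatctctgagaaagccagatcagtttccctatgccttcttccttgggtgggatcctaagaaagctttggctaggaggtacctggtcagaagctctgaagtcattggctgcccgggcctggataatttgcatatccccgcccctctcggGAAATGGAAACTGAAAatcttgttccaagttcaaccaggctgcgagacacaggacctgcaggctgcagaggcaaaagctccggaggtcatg
In Ifit3 and Irf7 the element stands on the opposite strand and is therefore read as its reverse complement. The 2 matches of Oas1a overlap. Shorter stretches of 30 bases show the same letters in Oas1b and Gbp2, which differed between the strains on both diets, and in Igtp, Bst2 and Rsad2, which did not pass the test on either diet.
Oas1b: cccttcccggGAAATGGAAACTGAAAaccc
Gbp2: agttttttagTTTCACTTTCattgtcttaa
Igtp: tccaggaaccGAAACTGAAAgcagttctgg
Bst2: ccctttccagGAAAATGAAACTGAAAggtg
Rsad2: ctggttcaacTTTCATTTTCagaaaacaga
These stretches come from windows at chr12:41395803-41396102 (minus), chr2:234005477-234005776 (plus), chr10:42874797-42875096 (plus), chr16:18254918-18255217 (minus) and chr6:48788071-48788370 (minus), again credited to RefSeq on GRCr8. Oas1b and Oas1a share the run of overlapping letters. The ISRE letters were present in 10 of the 15 members with a window that were higher in WKY rats on CAF, and in 9 of the 12 that did not pass there. No window was at hand for Mx2, Rtp4, Isg15, Usp18 and Ifit2, which are among the members with the largest strain differences.

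Values are log2 signals as the authors deposited them. They ran from 3.57 to 14.4 over the table with a median of 6.86, and signals of different probe sets cannot be set against each other. Differences between groups were tested with limma over all 28826 probe sets. Differences on the log2 scale are given ± their SE from this fit. A gene is called higher or lower where the p-value adjusted over all of them (Benjamini–Hochberg) was under 0.05. Array medians lay between 6.833 and 6.904. In 4 arrays the mean of 10 heat shock genes was 11.01 in WKY rat 1 on STD, 11.42 in LEW rat 2 on CAF, and 11.75 and 11.06 in LEW rats 2 and 3 on STD, against 10.04 to 10.20 in the other 16. Of the defining cell markers, Cd14 averaged between 12.63 and 12.79 over the 4 groups, Csf1r between 11.45 and 11.83, Cd3e of T cells between 12.17 and 12.36, Cd79b of B cells between 12.06 and 12.32, and Pf4 of platelets between 12.86 and 13.18. The preparation therefore carried RNA of lymphocytes and platelets beside that of monocytes. In such bulk RNA, fewer cells of a type and less RNA per cell cannot be told apart.

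Interferon-stimulated genes were higher in WKY than in LEW rats on either diet. On CAF, 23 of the 38 measured members (60.5%) passed the test with a higher level in WKY rats, 0 passed with a lower one, and 15 remained. Over all probe sets, 4.24% were higher and 3.34% lower. All probe sets here include 13311 with no listed gene and the dim ones. Of the 38 members, 32 had a mean above the median of the probe set means, so the members are brighter than this background. The members' median difference, WKY minus LEW, was 0.47 on the log2 scale and ranged from −0.56 to 1.71, against a median of −0.01 over all probe sets, and 34 of the 38 were above 0. All 5 WKY rats exceeded all 5 LEW rats for 23 members, against 4.16% of all probe sets. On STD, 29 of 38 (76.3%) were higher, 0 lower and 9 without a call, against 5.88% higher and 5.38% lower over all probe sets. The median there was 0.74 (all probe sets, −0.00), with a range from −0.16 to 2.36. The WKY and LEW rats on STD did not overlap for 24 members, each with WKY higher, against 4.37% of all probe sets. The largest difference on both diets was that of Mx2, 3.27-fold on CAF and 5.14-fold on STD. In LEW rats Mx2 averaged 6.10 on CAF and 6.16 on STD, below the table median of 6.86. These folds therefore rest on a dim signal in LEW rats.

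**Figure D1:**
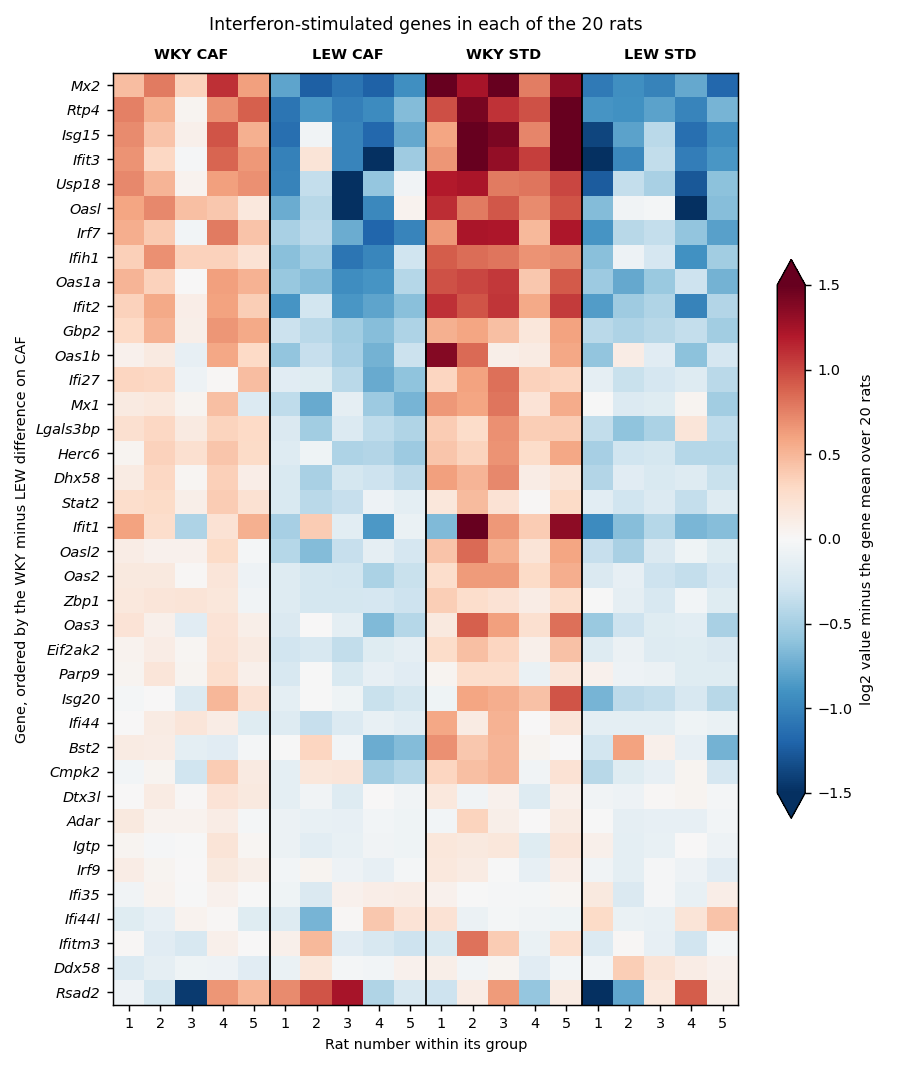
Heat map of 38 interferon-stimulated genes (rows, ordered by the WKY minus LEW difference on CAF) in 20 rats (columns, numbered 1 to 5 within each group). Colour gives the log2 value minus the gene's mean over the 20 rats, from blue (lower) to red (higher), with values beyond 1.5 in either direction drawn in the end colour. The upper rows are red in both WKY groups and blue in both LEW groups, while the bottom row, Rsad2, varies within every group.

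Of the 3 transcription factors of the response, Irf7 and Stat2 were higher in WKY rats on both diets and Irf9 did not pass. Irf7, the factor that amplifies type I interferon production, had values of 10.30, 10.15, 9.72, 10.54 and 10.19 in the 5 WKY rats on CAF, against 9.27, 9.37, 9.02, 8.57 and 8.77 in the 5 LEW rats on CAF. On STD its values were 10.41, 10.98, 10.97, 10.25 and 10.97 in WKY rats, against 8.88, 9.34, 9.41, 9.17 and 8.94 in LEW rats. WKY and LEW rats did not overlap on either diet. The log2 difference was 1.18 ± 0.18 (adjusted p = 0.000168) on CAF and 1.57 ± 0.18 (adjusted p = 4.76e-06) on STD, 2.27-fold and 2.96-fold. Stat2, the ISGF3 subunit phosphorylated at the type I receptor, differed by 0.49 ± 0.08 (adjusted p = 0.000314) on CAF and by 0.47 ± 0.08 (adjusted p = 0.000325) on STD, again without overlap. Irf9, the subunit that recognises the ISRE, had values of 10.33, 10.25, 10.22, 10.36 and 10.31 in the 5 WKY rats on CAF, against 10.17, 10.25, 10.13, 10.10 and 10.19 in the 5 LEW rats on CAF. The strains overlapped, and the difference was 0.13 ± 0.05 (adjusted p = 0.191). On STD Irf9 had values of 10.37, 10.34, 10.21, 10.09 and 10.32 in WKY rats, against 10.17, 10.07, 10.20, 10.14 and 10.05 in LEW rats, which overlapped, with a difference of 0.14 ± 0.05 (adjusted p = 0.0976). Without WKY rat 4 on STD, the difference of Irf9 on STD was 0.19 (adjusted p = 0.0166).

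Among the sensors of viral nucleic acid, 4 of 5 were higher in WKY rats on CAF, and the same 4 were higher on STD. Ifih1 encodes MDA5, the receptor of long double-stranded RNA in the cytoplasm. Its values were 10.03, 10.35, 10.02, 10.02 and 9.89 in the 5 WKY rats on CAF, against 9.04, 9.16, 8.58, 8.69 and 9.37 in the 5 LEW rats on CAF. On STD they were 10.58, 10.51, 10.47, 10.35 and 10.38 in WKY rats, against 9.05, 9.60, 9.42, 8.76 and 9.15 in LEW rats. On each diet the lowest WKY rat lay above the highest LEW rat. The difference was 1.10 ± 0.15 (adjusted p = 3.69e-05) on CAF and 1.26 ± 0.15 (adjusted p = 5.46e-06) on STD. Dhx58 (LGP2), which assists MDA5, differed by 0.52 ± 0.10 (adjusted p = 0.00191) on CAF and 0.70 ± 0.10 (adjusted p = 7.07e-05) on STD. For Zbp1, a sensor of left-handed nucleic acid that can start necroptosis, the differences were 0.39 ± 0.06 (adjusted p = 0.000114) and 0.36 ± 0.06 (adjusted p = 0.000162). Those of Eif2ak2 (PKR), the RNA-activated kinase that stops translation, were 0.35 ± 0.06 (adjusted p = 0.00103) and 0.49 ± 0.06 (adjusted p = 2.21e-05). Dhx58, Zbp1 and Eif2ak2 were without overlap on both diets. Ddx58 (RIG-I), the sensor of short RNA with a triphosphate end, stood outside this pattern. Its values were 8.05, 8.13, 8.20, 8.18 and 8.09 in the 5 WKY rats on CAF, against 8.16, 8.43, 8.23, 8.21 and 8.33 in the 5 LEW rats on CAF. Its values on STD were 8.34, 8.22, 8.30, 8.09 and 8.22 in WKY rats, against 8.21, 8.62, 8.45, 8.37 and 8.32 in LEW rats. The strains overlapped on both diets and the difference was negative without passing the test, −0.14 ± 0.07 (adjusted p = 0.274) on CAF and −0.16 ± 0.07 (adjusted p = 0.16) on STD.

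The oligoadenylate synthetases make the messenger that activates RNase L. Of the 6 measured, 5 were higher in WKY rats on CAF and 6 on STD. Oas1a, whose promoter is printed above, had values of 8.15, 7.98, 7.64, 8.25 and 8.15 in the 5 WKY rats on CAF, against 7.07, 7.00, 6.71, 6.76 and 7.21 in the 5 LEW rats on CAF. In STD-fed rats it had 8.60, 8.64, 8.70, 8.04 and 8.56 in WKY rats, against 7.10, 6.87, 7.08, 7.33 and 6.93 in LEW rats. No LEW rat reached the level of any WKY rat. The difference was 1.09 ± 0.13 (adjusted p = 1.25e-05) on CAF and 1.45 ± 0.13 (adjusted p = 2.8e-07) on STD. Oasl, a synthetase-like protein that in humans binds RIG-I, gave 11.90, 12.03, 11.76, 11.71 and 11.46 in the 5 WKY rats on CAF, against 10.57, 10.90, 9.65, 10.34 and 11.36 in the 5 LEW rats on CAF. Its values on STD were 12.42, 12.08, 12.24, 12.01 and 12.25 in WKY rats, against 10.65, 11.25, 11.28, 9.60 and 10.67 in LEW rats. LEW rats spread more widely than WKY rats here, and the highest LEW rat on CAF (11.36) came close to the lowest WKY rat (11.46). The difference was 1.21 ± 0.28 (adjusted p = 0.00831) and 1.51 ± 0.28 (adjusted p = 0.000909) on CAF and STD. Smaller differences, again with CAF first, were those of Oas1b, 0.68 ± 0.20 (adjusted p = 0.0398) and 0.91 ± 0.20 (adjusted p = 0.00448). For Oasl2, which has synthetase activity in the mouse, they were 0.46 ± 0.11 (adjusted p = 0.0101) and 0.77 ± 0.11 (adjusted p = 5.77e-05). For Oas2 they were 0.39 ± 0.08 (adjusted p = 0.00242) and 0.72 ± 0.08 (adjusted p = 2.17e-06). The call of Oas1b on CAF was lost in 12 of 21 alternatives, when single rats were left out (LEW rat 1, 3 or 4, or WKY rat 1, 2, 4 or 5), with centring on array medians and with the monocyte, neutrophil, NK cell or immediate-early covariate. Oas3, the synthetase of the longest chains, gave 8.11, 7.97, 7.73, 8.10 and 7.99 in the 5 WKY rats on CAF, against 7.69, 7.90, 7.75, 7.24 and 7.48 in the 5 LEW rats on CAF, so that 1 WKY rat lay among the LEW rats, and its difference of 0.37 ± 0.14 (adjusted p = 0.139) did not pass. On STD its values were 8.05, 8.80, 8.51, 8.14 and 8.73 in WKY rats, against 7.34, 7.59, 7.72, 7.75 and 7.42 in LEW rats, without overlap, a difference of 0.88 ± 0.14 (adjusted p = 0.000238). Oas1a, Oas1b, Oas3 and Oas2 lie near each other on chromosome 12, and Oasl and Oasl2 are neighbours on that chromosome. These are related sequences, and the probe sequences were not used here, so cross-hybridisation between family members was not tested.

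Several kinds of interferon-induced GTPase were represented. Mx1 and Mx2 are dynamin-like proteins that trap viral ribonucleoproteins, Gbp2 is a guanylate-binding protein and Igtp an immunity-related GTPase, both acting at the vacuoles of intracellular pathogens. Mx2 had values of 7.61, 7.93, 7.50, 8.24 and 7.76 in the 5 WKY rats on CAF, against 6.36, 5.92, 6.05, 5.93 and 6.23 in the 5 LEW rats on CAF. On STD its values were 8.77, 8.39, 9.07, 7.92 and 8.49 in WKY rats, against 6.08, 6.23, 6.15, 6.39 and 5.97 in LEW rats. The strains were well apart on both diets. The difference was 1.71 ± 0.17 (adjusted p = 6.67e-07) on CAF and 2.36 ± 0.17 (adjusted p = 5.68e-09) on STD. Mx1, its neighbour on chromosome 11 with 1 protein-coding gene between them, differed less, 0.62 ± 0.14 (adjusted p = 0.00572) and 0.74 ± 0.14 (adjusted p = 0.000872), and on CAF the highest LEW rat (10.10) exceeded the lowest WKY rat (10.03). Gbp2 differed by nearly the same amount on the 2 diets, 0.90 ± 0.10 (adjusted p = 2.6e-06) on CAF and 0.91 ± 0.10 (adjusted p = 2.07e-06) on STD, without overlap. Igtp gave 8.01, 7.96, 7.98, 8.17 and 8.002 in the 5 WKY rats on CAF, against 7.89, 7.82, 7.87, 7.92 and 7.92 in the 5 LEW rats on CAF. On STD it had 8.14, 8.12, 8.15, 7.80 and 8.16 in WKY rats, against 8.05, 7.83, 7.86, 7.98 and 7.91 in LEW rats. Every WKY rat exceeded every LEW rat on CAF, but the difference of 0.14 ± 0.06 (adjusted p = 0.235) did not pass the test, nor did that on STD, 0.15 ± 0.06 (adjusted p = 0.163). Without WKY rat 4 on STD, whose 7.80 was far below the other rats of its group, the difference on STD was 0.22 (adjusted p = 0.00847).

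The IFIT proteins bind viral RNA by its 5′ end or block its translation. Ifit2 and Ifit3 were higher in WKY rats on both diets and Ifit1 on STD only. The 3 genes lie together on chromosome 1. Ifit3, whose promoter carries the element printed above, had values of 10.73, 10.37, 10.05, 10.93 and 10.71 in the 5 WKY rats on CAF, against 9.05, 10.25, 9.08, 8.45 and 9.53 in the 5 LEW rats on CAF. On STD it had 10.73, 11.71, 11.37, 11.10 and 11.75 in WKY rats, against 8.41, 9.10, 9.69, 9.03 and 9.18 in LEW rats. LEW rat 2 on CAF, one of the arrays with high heat shock genes, reached 10.25 and overlapped the WKY rats, whereas the strains were apart on STD. The difference was 1.29 ± 0.28 (adjusted p = 0.00548) on CAF and 2.25 ± 0.28 (adjusted p = 1.37e-05) on STD. Ifit2 gave 8.79, 9.01, 8.55, 9.05 and 8.83 in the 5 WKY rats on CAF, against 7.56, 8.18, 7.58, 7.66 and 7.83 in the 5 LEW rats on CAF. Its values on STD were 9.55, 9.40, 9.52, 9.02 and 9.50 in WKY rats, against 7.61, 7.92, 8.003, 7.45 and 8.01 in LEW rats. The strains did not overlap, with differences of 1.09 ± 0.14 (adjusted p = 1.67e-05) and 1.60 ± 0.14 (adjusted p = 9e-08). Ifit1 was the most variable of the family, with 7.30, 6.96, 6.23, 6.91 and 7.24 in the 5 WKY rats on CAF, against 6.20, 7.08, 6.54, 5.84 and 6.60 in the 5 LEW rats on CAF. It had 6.04, 8.39, 7.35, 7.08 and 8.04 in WKY rats, against 5.76, 6.07, 6.27, 6.01 and 6.06 in LEW rats on STD. WKY rat 1 on STD (6.04) lay among the LEW rats while WKY rat 2 reached 8.39. The difference on CAF was 0.48 ± 0.32 (adjusted p = 0.49), with a 95% interval of −0.19 to 1.15, and that on STD 1.35 ± 0.32 (adjusted p = 0.00841).

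All 3 genes of ISG15 conjugation were higher in WKY rats on both diets. Isg15 is the ubiquitin-like modifier that is attached to proteins and also secreted. Its values were 9.51, 9.22, 8.87, 9.74 and 9.34 in the 5 WKY rats on CAF, against 7.66, 8.74, 7.81, 7.62 and 8.03 in the 5 LEW rats on CAF. On STD they were 9.39, 10.48, 10.21, 9.53 and 10.49 in WKY rats, against 7.42, 7.998, 8.39, 7.67 and 7.87 in LEW rats. The lowest WKY rat on CAF (8.87) stood just above LEW rat 2 (8.74), and the gap was wider on STD. The difference was 1.36 ± 0.24 (adjusted p = 0.000986) on CAF and 2.15 ± 0.24 (adjusted p = 4.44e-06) on STD, 2.57-fold and 4.44-fold. Usp18 removes Isg15 from its targets and binds Ifnar2 to dampen the receptor. It had values of 8.81, 8.60, 8.15, 8.70 and 8.77 in the 5 WKY rats on CAF, against 7.08, 7.74, 6.47, 7.51 and 8.04 in the 5 LEW rats on CAF. On STD its values were 9.27, 9.31, 8.87, 8.89 and 9.09 in WKY rats, against 6.84, 7.73, 7.60, 6.82 and 7.48 in LEW rats. WKY rats exceeded all LEW rats, and LEW rats spread more. The difference was 1.24 ± 0.24 (adjusted p = 0.0017) and 1.79 ± 0.24 (adjusted p = 2.63e-05) on CAF and STD. Herc6, the main ISG15 ligase of the mouse, differed by 0.61 ± 0.09 (adjusted p = 0.000199) and 0.84 ± 0.09 (adjusted p = 3.54e-06).

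**Figure D2:**
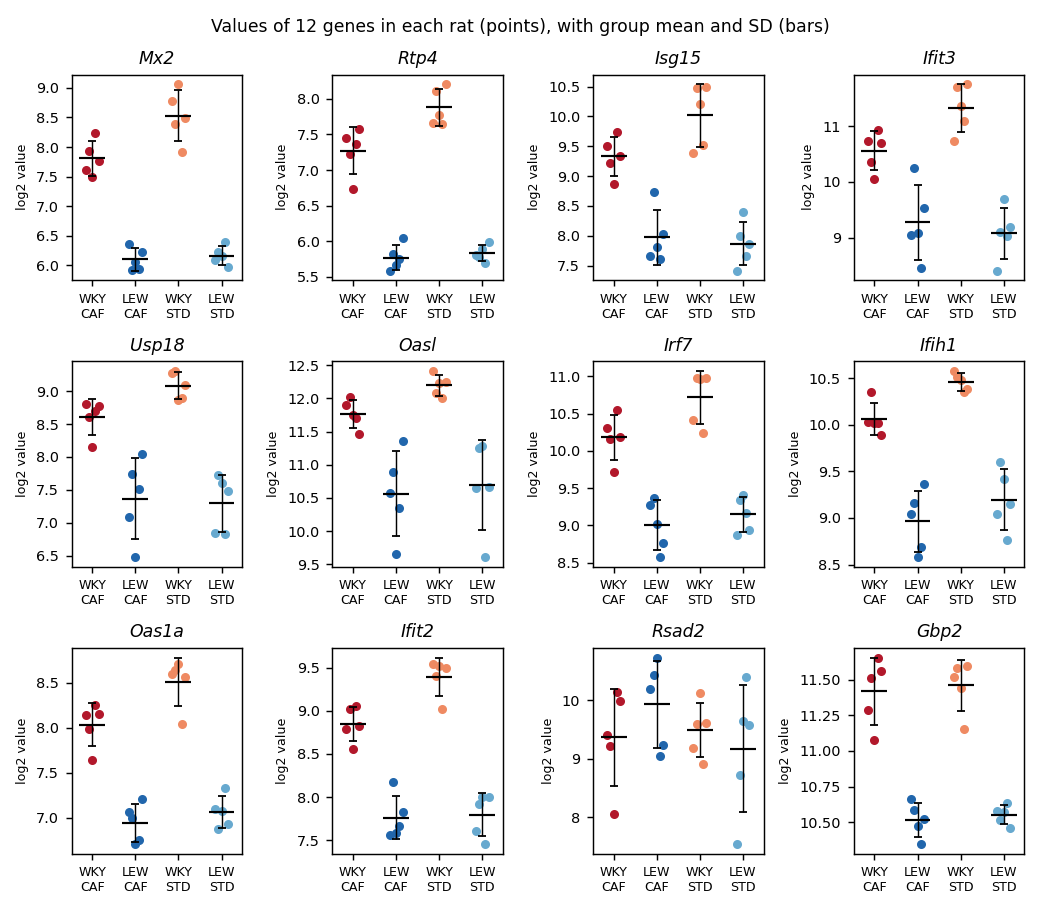
Log2 values of 12 interferon-stimulated genes in each rat (points) with group mean (long bar) and SD (whiskers), 5 rats per group, for WKY on CAF, LEW on CAF, WKY on STD and LEW on STD. Each panel has its own log2 axis that does not start at 0. Mx2 lay between 7.50 and 9.07 in WKY rats and between 5.92 and 6.39 in LEW rats, whereas the groups overlapped throughout for Rsad2.

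Of the 5 membrane and trafficking effectors, 3 were higher in WKY rats on both diets. Rtp4, a chaperone of receptors that interferon induces strongly, had values of 7.45, 7.22, 6.73, 7.37 and 7.58 in the 5 WKY rats on CAF, against 5.59, 5.82, 5.66, 5.75 and 6.04 in the 5 LEW rats on CAF. On STD it had 7.66, 8.11, 7.78, 7.64 and 8.21 in WKY rats, against 5.80, 5.78, 5.89, 5.70 and 5.99 in LEW rats. The strains were far apart on both diets, by 1.50 ± 0.14 (adjusted p = 2.84e-07) on CAF and 2.05 ± 0.14 (adjusted p = 2.64e-09) on STD. The signal of Rtp4 in LEW rats was dim, with means of 5.77 on CAF and 5.83 on STD. Lgals3bp, a secreted glycoprotein that binds galectins, differed by 0.62 ± 0.11 (adjusted p = 0.000907) and 0.74 ± 0.11 (adjusted p = 9.69e-05). Ifi27, a small membrane protein, differed by 0.63 ± 0.12 (adjusted p = 0.00229) and 0.75 ± 0.12 (adjusted p = 0.000325). Bst2 (tetherin), which holds budding virus at the cell surface, gave 6.64, 6.64, 6.38, 6.36 and 6.49 in the 5 WKY rats on CAF, against 6.52, 6.85, 6.48, 5.78 and 5.87 in the 5 LEW rats on CAF. It had 7.21, 6.92, 7.03, 6.57 and 6.53 in WKY rats, against 6.25, 7.13, 6.59, 6.40 and 5.82 in LEW rats on STD. The strains overlapped on both diets, with differences of 0.20 ± 0.21 (adjusted p = 0.716) and 0.42 ± 0.21 (adjusted p = 0.252). On STD Bst2 passed as higher in WKY rats with the heat shock genes as a covariate (0.59, adjusted p = 0.00968). It also passed there without the 4 arrays of high heat shock genes (0.61, adjusted p = 0.0490). Ifitm3, which blocks the fusion of virus in endosomes, differed by −0.03 ± 0.16 (adjusted p = 0.96) on CAF and by 0.35 ± 0.16 (adjusted p = 0.197) on STD. Without the 4 arrays of high heat shock genes, it passed on STD (0.51, adjusted p = 0.0498). Bst2 and Ifitm3 averaged 6.52 and 6.26 over the 20 rats, below the table median of 6.86. At such dim signals a difference that did not pass says little.

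Of the 4 enzymes of nucleotides and RNA, 0 passed on CAF (limma, with Adar alone at an unadjusted p under 0.05, 0.0157) and 3 passed on STD. Adar, which edits adenosine to inosine in double-stranded RNA, had values of 10.44, 10.35, 10.34, 10.41 and 10.27 in the 5 WKY rats on CAF, against 10.21, 10.18, 10.18, 10.26 and 10.23 in the 5 LEW rats on CAF. In STD-fed rats the values were 10.26, 10.63, 10.39, 10.30 and 10.42 in WKY rats, against 10.29, 10.16, 10.18, 10.17 and 10.26 in LEW rats. All WKY rats exceeded all LEW rats on CAF, yet the difference was small and did not pass, 0.15 ± 0.06 (adjusted p = 0.13), while that on STD did, 0.19 ± 0.06 (adjusted p = 0.0365). Isg20, an exonuclease of viral RNA, differed by 0.26 ± 0.15 (adjusted p = 0.361) on CAF and 0.91 ± 0.15 (adjusted p = 0.000213) on STD. Cmpk2, a mitochondrial nucleotide kinase, differed by 0.19 ± 0.14 (adjusted p = 0.563) and 0.48 ± 0.14 (adjusted p = 0.0348). The STD call of Adar was lost in 14 of 22 alternatives, among them those without LEW rat 2, 3 or 4 or WKY rat 2, 3 or 5, centring on array medians, fitting the 2 groups alone, the replicate block and the heat shock covariate. That of Cmpk2 was lost in 12 of 22, among them those without rat 1, 2, 3 or 5 of either strain. Rsad2 (viperin), which makes a chain-terminating nucleotide and lies next to Cmpk2 on chromosome 6, is described because its values, once seen, differed from those of the other members. They were 9.41, 9.22, 8.05, 10.15 and 9.99 in the 5 WKY rats on CAF, against 10.20, 10.43, 10.73, 9.04 and 9.24 in the 5 LEW rats on CAF. On STD they were 9.18, 9.60, 10.13, 8.91 and 9.61 in WKY rats, against 7.53, 8.71, 9.64, 10.39 and 9.58 in LEW rats. Values spread over more than 1 log2 unit in every group and the strains overlapped on both diets. The difference was −0.56 ± 0.47 (adjusted p = 0.607) on CAF, with a 95% interval of −1.54 to 0.41, and 0.31 ± 0.47 (adjusted p = 0.762) on STD, with an interval of −0.66 to 1.29.

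Parp9, an ADP-ribosyltransferase, and its partner Dtx3l, a ubiquitin ligase, lie side by side on chromosome 11. Parp9 was higher in WKY rats on both diets, by 0.27 ± 0.07 (adjusted p = 0.0201) on CAF and 0.22 ± 0.07 (adjusted p = 0.0493) on STD, close to the threshold on STD. Its call was lost on CAF in 8 of 22 alternatives (without LEW rat 1 or 3 or WKY rat 2 or 4, and with the monocyte, neutrophil, NK cell or immediate-early covariate). On STD it was lost in 17 of 22, among them those without LEW rat 2, 3, 4 or 5 or WKY rat 2, 3 or 5, centring on array medians, repeated quantile normalisation, a variance trend with intensity, fitting the 2 groups alone and the replicate block. Dtx3l gave 8.50, 8.63, 8.51, 8.70 and 8.64 in the 5 WKY rats on CAF, against 8.35, 8.45, 8.31, 8.51 and 8.45 in the 5 LEW rats on CAF. On STD it had 8.66, 8.45, 8.56, 8.31 and 8.58 in WKY rats, against 8.45, 8.43, 8.52, 8.55 and 8.47 in LEW rats. The strains overlapped on both diets, and the difference did not pass, 0.19 ± 0.06 (adjusted p = 0.068) on CAF and 0.03 ± 0.06 (adjusted p = 0.844) on STD. Of the remaining 3 members, Ifi44, Ifi44l and Ifi35, none passed on CAF (limma, with Ifi44 alone at an unadjusted p under 0.05, 0.0127) and Ifi44 passed on STD. Ifi44 had 9.33, 9.44, 9.50, 9.43 and 9.13 in the 5 WKY rats on CAF, against 9.12, 8.97, 9.12, 9.20 and 9.16 in the 5 LEW rats on CAF. Its values on STD were 9.91, 9.45, 9.84, 9.33 and 9.50 in WKY rats, against 9.17, 9.17, 9.17, 9.25 and 9.22 in LEW rats. WKY rat 5 on CAF (9.13) lay among the LEW rats, and the strains were apart on STD, with differences of 0.25 ± 0.09 (adjusted p = 0.113) and 0.41 ± 0.09 (adjusted p = 0.00522). Its neighbour Ifi44l on chromosome 2 differed by −0.03 ± 0.15 (adjusted p = 0.96) and −0.14 ± 0.15 (adjusted p = 0.631). Ifi35, a leucine zipper protein that joins Nmi, differed by 0.01 ± 0.07 (adjusted p = 0.956) and 0.03 ± 0.07 (adjusted p = 0.839).

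Between the diets, the strain difference was larger on STD than on CAF for 32 of the 38 members, among them 20 of the 23 called on both. Another 6 members were called on STD only (Adar, Cmpk2, Ifi44, Isg20, Oas3 and Ifit1), 0 on CAF only and 9 on neither. The test of the difference between the 2 strain differences is the diet by strain interaction given below, which no member passed. The comparisons on CAF and on STD use separate rats.

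**Figure D3:**
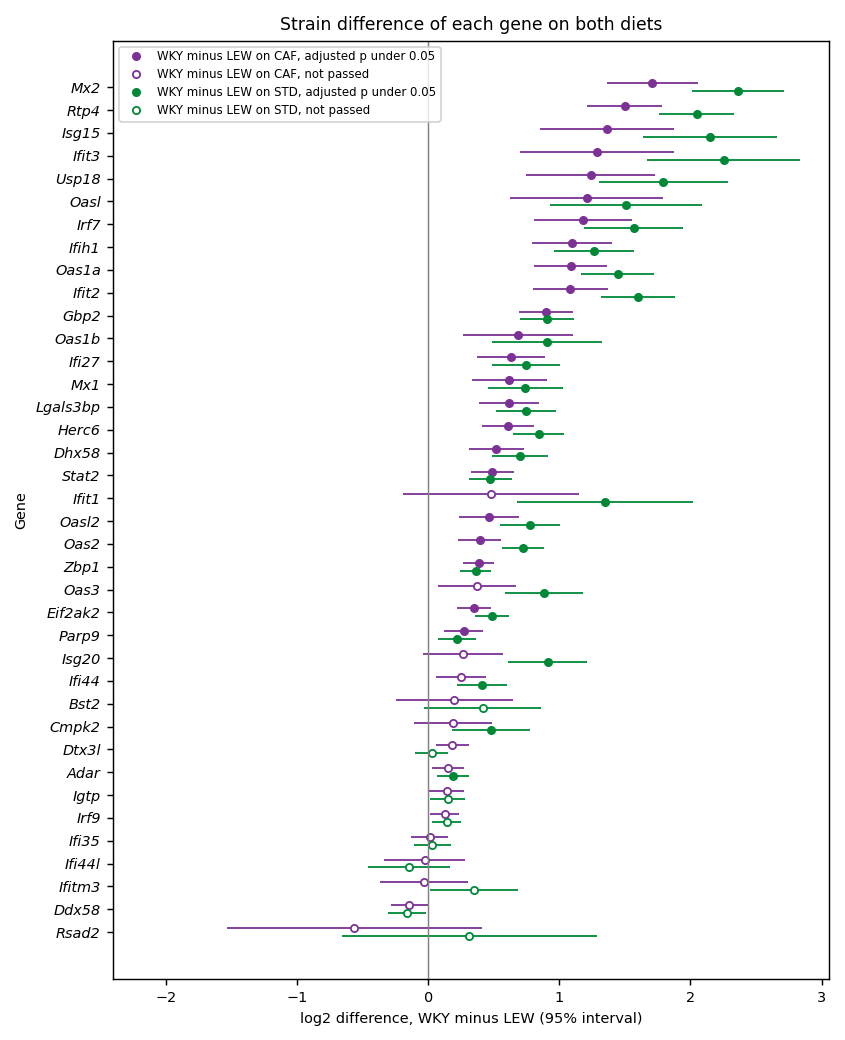
WKY minus LEW log2 difference of 38 interferon-stimulated genes (rows, ordered by the difference on CAF) on CAF (purple) and on STD (green), with 95% intervals from the fit over all probe sets. Filled points passed an adjusted p under 0.05 (23 on CAF, 29 on STD), and most green points lie to the right of the purple point of the same gene.

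Markers of other blood cells moved with strain beside the interferon-stimulated genes. Of 14 neutrophil markers, 5 were higher in WKY rats on CAF and 11 on STD, with 0 lower on either diet. The mean of the neutrophil markers per rat was 8.73 to 9.60 in WKY rats and 7.99 to 8.94 in LEW rats on CAF, and 8.74 to 10.04 in WKY rats and 7.74 to 8.23 in LEW rats on STD. NK cell markers were higher for 9 and lower for 1 of 13 on CAF, and for 12 and 1 of 13 on STD, with a mean of 10.3 to 10.5 in WKY rats and 9.44 to 9.88 in LEW rats on CAF, and of 10.4 to 10.9 and 9.51 to 9.98 in WKY and LEW rats on STD. Immediate-early genes, which mark recent activation or handling, were higher for 4 of 13 on CAF and 10 of 13 on STD, with means of 10.73 to 10.96 in WKY rats and 10.15 to 10.51 in LEW rats on CAF, and of 11.1 to 11.3 and 10.2 to 10.9 on STD. Among 17 monocyte markers, 2 were higher and 6 lower in WKY rats on CAF, and 4 and 5 on STD. Single markers ranged from −1.39 to 1.40 on CAF and from −1.28 to 1.39 on STD. Their mean per rat was 9.88 to 10.32 in WKY rats and 10.34 to 10.65 in LEW rats on CAF, without overlap. On STD it was 10.23 to 10.53 in WKY rats and 10.44 to 10.64 in LEW rats. Of 11 markers of plasmacytoid dendritic cells, the main producers of type I interferon, 1 was higher and 1 lower on CAF and 1 and 2 on STD. T cell, B cell, platelet and red cell markers had at most 1 higher call each on either diet, with up to 6 lower.

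With the mean of the neutrophil markers of each rat as a covariate, 15 members were called on CAF, of which Ifit1 was lower (−0.74) and the other 14 higher, and 10 on STD, all higher. With the NK cell markers as a covariate, 7 and 5 members were called on CAF and STD, and with the immediate-early genes 10 and 12, all higher. The NK cell and immediate-early covariates were chosen after the data were seen. Calls over all probe sets fell in the same fits, to 940, 368 and 951 on CAF, against 2185 without a covariate. On STD they fell to 381, 150 and 626, against 3247 without a covariate. The median difference of the members on CAF was 0.41, 0.52 and 0.44 with the neutrophil, NK cell and immediate-early covariates, against 0.47 without one. On STD the median was 0.50, 0.72 and 0.60 in the same order, against 0.74. Gbp2, Ifit2, Mx2, Oas1a, Rtp4 and Stat2 on CAF, and Ifit2, Mx2, Oas1a and Rtp4 on STD, kept their calls under every alternative in which they were tested. Rtp4 was removed by the filter on dim probe sets and so was not tested there.

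**Figure D4:**
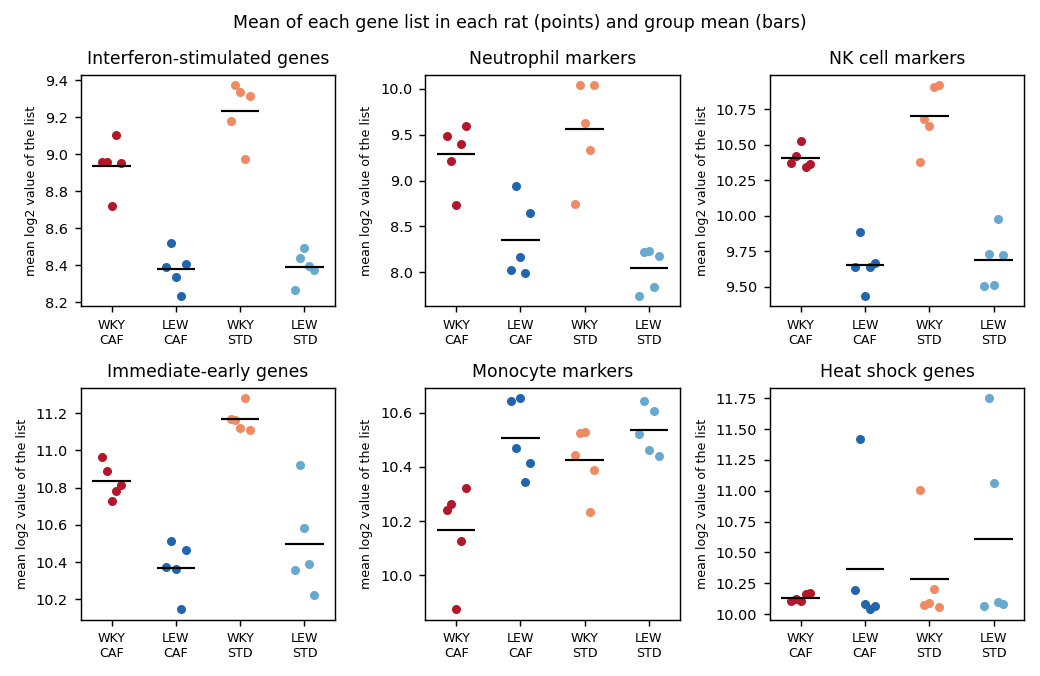
Mean log2 value of 6 gene lists in each rat (points) and the mean of each group of 5 rats (bars), for WKY on CAF, LEW on CAF, WKY on STD and LEW on STD. Each axis is on its own scale and does not start at 0. The interferon-stimulated genes averaged 8.72 to 9.37 in WKY rats and 8.23 to 8.52 in LEW rats, neutrophil, NK cell and immediate-early lists were also higher in WKY rats, and 4 arrays stood apart on heat shock genes.

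Other parts of the interferon pathway differed less between the strains. Of 5 interferon genes measured, 0 passed on CAF (limma, with Ifng alone at an unadjusted p under 0.05) and Ifng, the only type II interferon, was higher on STD, by 1.59 ± 0.32 (adjusted p = 0.00191), with 0.71 ± 0.32 (adjusted p = 0.229) on CAF. Ifnb1, the interferon β gene, differed by 0.07 ± 0.05 (adjusted p = 0.487) on CAF and −0.03 ± 0.05 (adjusted p = 0.781) on STD. Of 6 receptors and kinases, Ifngr1 was higher, by 0.19 ± 0.05 (adjusted p = 0.0326) and 0.23 ± 0.05 (adjusted p = 0.00658), and Jak2 lower, by −0.22 ± 0.05 (adjusted p = 0.00524) and −0.26 ± 0.05 (adjusted p = 0.000922), on CAF and STD, while Ifnar1 differed by 0.03 and 0.01 without passing. Among 7 further STAT and IRF factors, Irf8 and Irf1 were higher on CAF, by 0.41 ± 0.10 (adjusted p = 0.0165) and 0.43 ± 0.13 (adjusted p = 0.0489), and 0 passed on STD (limma), where Irf1, Irf8 and Stat3 were at an unadjusted p under 0.05. Tyk2 and Ifnar2 were not analysed here. Of 10 further sensors and adaptors, Tlr3 and Tbk1 were higher on CAF, by 0.33 and 0.21, and Tlr3, Tbk1, Myd88 and Tlr7 on STD. Of 9 brakes on the response, Usp25 and Socs3 were higher on CAF, by 0.21 and 0.52, and Socs3 and Socs1 on STD. In a wider list of 37 interferon-induced genes, 12 were higher and 1 lower on CAF, and 15 higher and 1 lower on STD, and the list's median difference was 0.13 and 0.19. The smallest adjusted p-values on CAF in that list were those of Gbp5, a guanylate-binding protein, 0.89 ± 0.11 (adjusted p = 1.74e-05), Nampt, 0.56 ± 0.09 (adjusted p = 0.000208), Ifitm1, 0.53 ± 0.09 (adjusted p = 0.000449), and the peptide transporter Tap1, 0.52 ± 0.09 (adjusted p = 0.000869).

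The diet comparison asks whether CAF changed these genes within a strain. In WKY rats, 0 of 38 members passed the adjusted test in limma, as did 0% of all probe sets. At an unadjusted p under 0.05, 17 members were lower and 0 higher in CAF-fed WKY rats, against 4.79% lower and 4.01% higher over all probe sets. The members' median difference, CAF minus STD, was −0.28, with a range from −0.78 to 0.09, and 34 of 38 were below 0. The 3 smallest p-values were those of Oas2, Rtp4 and Mx2. Oas2 gave 6.88, 6.88, 6.76, 6.91 and 6.66 in the 5 WKY rats on CAF, against 6.99, 7.37, 7.37, 7.02 and 7.28 in the 5 WKY rats on STD. Its difference of −0.39 ± 0.08 (adjusted p = 0.187) came without overlap, at an unadjusted p of 7.31e-05. Rtp4, with the values given above, differed by −0.61 ± 0.14 (adjusted p = 0.196) and Mx2 by −0.72 ± 0.17 (adjusted p = 0.196). For Oas2, Usp18 and Rtp4 every WKY rat on CAF lay below every WKY rat on STD, 3 members, against 0.961% of all probe sets. The largest difference was that of Ifit3, −0.78 ± 0.28 (adjusted p = 0.4), with a 95% interval of −1.36 to −0.19, followed by Mx2 and by Isg15, −0.68 ± 0.24 (adjusted p = 0.395). Other lists moved beside the members without a marker that passed. In WKY rats the median CAF minus STD difference was −0.25 over 17 monocyte markers, −0.28 over 14 neutrophil markers, −0.18 over 13 NK cell markers and −0.28 over 13 immediate-early genes. The mean of the immediate-early genes per rat was 10.73 to 10.96 in WKY rats on CAF and 11.1 to 11.3 in WKY rats on STD, without overlap. The members' median in WKY rats was −0.15 with the monocyte markers as a covariate, −0.25 with the neutrophil markers, −0.30 with the NK cell markers and −0.19 with the immediate-early genes, and 0 members passed in each of these fits (limma).

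In LEW rats, 0 of 38 members passed the adjusted test in limma (0% of all probe sets), and at an unadjusted p under 0.05 2 were lower and 0 higher, against 3.04% lower and 2.42% higher over all probe sets. The median difference was −0.06 and ranged from −0.33 to 0.76, with 25 members below and 13 above 0. The smallest p-values were those of Mx1, −0.33 ± 0.14 (adjusted p = 0.884), Zbp1, −0.14 ± 0.06 (adjusted p = 0.888), and Ddx58, −0.12 ± 0.07 (adjusted p = 0.922). The upper end of the range was Rsad2, whose 95% interval was −0.22 to 1.73. Mx2 in LEW rats differed by −0.06 with an interval of −0.41 to 0.29, and Isg15 by 0.10 with an interval of −0.41 to 0.61.

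The interaction, in which the CAF minus STD difference of LEW rats is subtracted from that of WKY rats, passed for 0 of 38 members in limma (0% of all probe sets). At an unadjusted p under 0.05, 8 members were negative and 0 positive, against 2.84% negative and 3.1% positive over all probe sets. The median was −0.22 and the range −0.97 to 0.16, with 32 of 38 below 0. The same contrast had a median of −0.64 over the neutrophil markers, −0.26 over the immediate-early genes, −0.15 over the monocyte markers and −0.10 over the NK cell markers, again with 0 passing. The members' median was −0.10 with the monocyte markers as a covariate, where 11 members were above 0, and −0.16, −0.30 and −0.19 with the neutrophil, NK cell and immediate-early covariates. The smallest p-values belonged to Isg20, −0.65 ± 0.21 (adjusted p = 0.727), Oas2, −0.33 ± 0.11 (adjusted p = 0.743), and Rtp4, −0.55 ± 0.19 (adjusted p = 0.775). Isg20 gave 8.84, 8.88, 8.67, 9.37 and 9.10 in WKY rats on CAF and 8.81, 9.46, 9.41, 9.31 and 9.82 in WKY rats on STD, and 8.73, 8.86, 8.80, 8.54 and 8.60 in LEW rats on CAF and 8.18, 8.48, 8.51, 8.63 and 8.46 in LEW rats on STD. It was thus lower on CAF in WKY rats and higher on CAF in LEW rats in the mean, with overlap in both strains. The intervals of the interaction were wide beside its size, −1.80 to −0.14 for Ifit3 and −1.51 to −0.06 for Isg15.

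**Figure D5:**
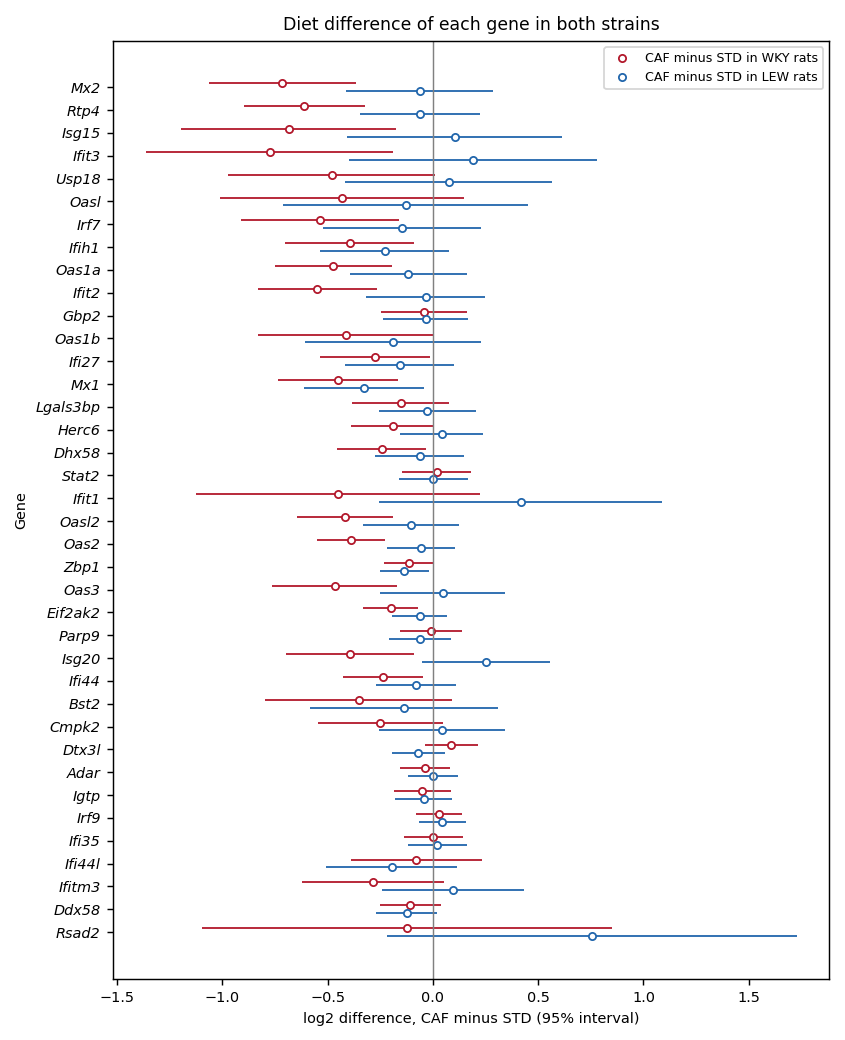
CAF minus STD log2 difference of 38 interferon-stimulated genes (rows, in the order of the strain difference on CAF) in WKY rats (red) and in LEW rats (blue), with 95% intervals from the fit over all probe sets. Open points mark that 0 members passed an adjusted p under 0.05. In WKY rats 34 of 38 points lie left of 0, and in LEW rats 25 of 38.

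By group mean, 31 members were highest in WKY rats on STD, 4 in WKY rats on CAF, 2 in LEW rats on STD and 1 in LEW rats on CAF. The lowest mean was that of LEW rats on CAF for 23 members, of LEW rats on STD for 13 and of WKY rats on CAF for 2. The neighbours in this order, the 2 diets within a strain, did not differ by the adjusted test for any member. Averaged over the 38 members, the log2 value was 8.94 ± 0.14 in WKY rats on CAF, 8.38 ± 0.10 in LEW rats on CAF, 9.23 ± 0.16 in WKY rats on STD and 8.39 ± 0.09 in LEW rats on STD (SD, n = 5 each). Single rats carried part of the spread within groups. WKY rat 4 on STD was the lowest of its group for 24 of 38 members, WKY rat 3 on CAF the lowest for 22, and WKY rat 4 on CAF the highest for 25. Without WKY rat 4 on STD, 31 members were called between the strains on STD, against 29 with it.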

How the data were processed

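Gene expression in blood cells of 20 male rats (WKY and LEW, on CAF or STD, 5 rats per group) was measured on 1 array per rat, and groups follow the sample labels. The table that the authors deposited holds log2 signals of 28826 probe sets on 20 arrays, already made comparable between arrays. RMA is the procedure named in the methods and MAS5 the one in the submitters' notes, without a version. The values were used as deposited, with no filter, and 0 columns were left unmapped. Probe sets were named from the platform annotation: 15209 carried 1 gene symbol, 306 several and 13311 none, and only the first kind was used, with the probe set of the highest mean for a gene outside the list with several.

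Group means were fitted with limma 3.58.1 in R 4.3.3 over all 20 arrays and all probe sets, with 16 residual degrees of freedom and Benjamini–Hochberg adjustment per comparison. Errors are SE of the fit or SD over 5 rats, and the number of arrays limits the precision. Simulated arrays drew each of 28826 probe sets independently, from its mean over the 20 arrays and its spread pooled within the 4 groups. In WKY against LEW on CAF, the fit recovered 85 of 100 probe sets changed 1.5-fold and 97 of 100 changed 2-fold. No other probe set was changed and no cell mixture was simulated, so the real arrays may give other rates. Members, lists and tests were chosen with earlier results of these data known. Values in every rat are given for the 10 called members of largest difference on CAF and for the uncalled member of highest mean in each role group. Where a diet comparison called no member, the 3 of smallest p are named. Promoters are RefSeq windows on GRCr8, searched for motif letters on both strands. Alternatives changed the normalisation, variance model, samples in the fit, filter, replicate block and marker covariates, and left out single arrays.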

Additional observations from a re-analysis of the deposited data

Results flagged for a closer look

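Of 156 sets of 5 values (38 members and their mean in 4 groups), 8 held a rat far from the other 4 of its group, where chance gives about 1 in 20. In WKY rats on STD, rat 4 was far below the others for Igtp (7.80, next lowest 8.12), Ifit2 (9.02, next lowest 9.40) and Oas1a (8.04, next lowest 8.56), rat 1 was far above them for Ifi44l (9.48, next highest 9.24) and rat 3 for Lgals3bp (11.6, next highest 11.3). In WKY rats on CAF, rat 4 stood above the others for Igtp (8.17, next highest 8.01) and rat 5 below them for Zbp1 (9.97, next lowest 10.2). In LEW rats on STD, rat 2 stood above the others for Eif2ak2 (8.92, next highest 8.82), and it was also one of the 4 arrays with high heat shock genes, as was WKY rat 1 on STD.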

How the results depend on the processing

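Changes of normalisation, variance model, samples in the fit, filter on dim probe sets and covariates of monocyte markers or heat shock genes left 21 to 23 members called on CAF and 25 to 29 on STD. The filter on dim probe sets kept only 32 of the 38 members, of which 21 were called on CAF and 25 on STD. It removed Bst2, Ifitm3, Ifit1, Oas1b, Oas2 and Rtp4. Over all probe sets that it kept, those with a mean above the median, 2058 were called on CAF and 2958 on STD. Without the filter these counts were 2185 and 3247. With the neutrophil, NK cell and immediate-early covariates the counts were 15, 7 and 10 on CAF and 10, 5 and 12 on STD. The NK cell and immediate-early means did not overlap between the strains on either diet, so these covariates went together with strain. Why these counts fell was not tested. Leaving out single rats gave 21 to 23 on CAF and 26 to 31 on STD, and 0 to 0 for the diets in WKY and LEW rats and for the interaction. Without the 4 arrays of high heat shock genes, 23 and 28 were called. On STD Ifi44l was then lower (-0.36), and Bst2 (0.61) and Ifitm3 (0.51) were higher. That setting and the NK cell and immediate-early covariates were chosen after the data were seen. Calls were also gained on CAF by Oas3 (0.69) and Cmpk2 (0.59) with the monocyte covariate. Ifi44 (0.46) gained one there with the neutrophil covariate and Dtx3l (0.19) with the filter on dim probe sets. On STD, calls were gained by Bst2 (0.59) with the heat shock covariate, and by Irf9 (0.19) and Igtp (0.22) without WKY rat 4. With the replicate number as a block, 23 members were called on CAF, 27 on STD and 0 in each diet comparison and the interaction. Same-numbered rats correlated between -0.177 and 0.43 in their deviations. The highest values, 0.41 and 0.43, were those of rats 2 and 5 between the diets in LEW rats. Whether the numbers pair rats was not tested. Every member had 1 probe set, so a mean over probe sets gave no separate value, and the interaction has no fit of 2 groups.

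The sign turned for 1 called difference, that of Ifit1 on STD with the neutrophil covariate (-0.63, adjusted p = 0.258). The rest concerned members that had not passed. With the neutrophil covariate these were, on CAF, Oas3 (-0.047), Ifit1 (-0.74), Cmpk2 (-0.0091), Isg20 (-0.14) and Ifi44l (0.30), and on STD Ifitm3 (-0.42), Rsad2 (-0.89) and Ifi44l (0.38). With the NK cell covariate they were, on CAF, Ifit1 (-0.37), Isg20 (-0.22) and Ifi44l (0.30), and on STD Rsad2 (-0.17) and Ifi44l (0.30). With the immediate-early covariate they were Bst2 (-0.55) and Ifi44l (0.44) on CAF and Bst2 (-0.67) and Ifi44l (0.54) on STD. With the monocyte covariate they were Ifitm3 (0.22), Rsad2 (0.54) and Ifi35 (-0.054) on CAF, and with the heat shock covariate Ifi35 (-0.016 on CAF, -0.010 on STD). Without the 4 heat shock arrays they were Ifitm3 (0.10) and Ifi35 (-0.041) on CAF and Dtx3l (-0.015) and Ifi35 (-0.044) on STD. Over the fits that left out single rats, the differences of Ifitm3 (-0.10 to 0.099), Ifi44l (-0.19 to 0.086) and Ifi35 (-0.041 to 0.043) crossed 0 on CAF, and those of Rsad2 (-0.096 to 0.62), Dtx3l (-0.0080 to 0.078) and Ifi35 (-0.017 to 0.073) on STD.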

Other observations

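Some genes of the wider interferon list stood close to the members in size. The OAS paralogue Oas1k averaged 10.2 ± 0.53 in WKY rats on CAF and 9.18 ± 0.98 in LEW rats on CAF, and 10.8 ± 0.89 in WKY rats on STD and 8.81 ± 0.81 in LEW rats on STD (SD, n = 5 each). WKY minus LEW (± SE), it differed by 0.98 ± 0.47 (adjusted p = 0.264) on CAF and by 2.01 ± 0.47 (adjusted p = 0.00673) on STD, with overlap on both diets. Oas1i differed by 0.51 ± 0.13 (adjusted p = 0.0146) on CAF and by 0.81 ± 0.13 (adjusted p = 0.000166) on STD. The chemokine Cxcl10 was higher in WKY rats by 0.82 ± 0.19 (adjusted p = 0.0101) on CAF and by 0.85 ± 0.19 (adjusted p = 0.00579) on STD. Ube2l6, the conjugating enzyme of Isg15, was higher by 0.47 ± 0.11 (adjusted p = 0.00834) and 0.63 ± 0.11 (adjusted p = 0.000443) on CAF and STD. These genes were picked after their values were seen.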
